A study of Mus musculus with 3 samples.

Results

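The 10 glycolysis genes Slc2a1, Hk2, Pfkp, Aldoa, Gapdh, Pgk1, Eno1, Pkm, Ldha and Pdk1, out of 32285 genes in the count tables, were followed in mouse intestinal organoids by single-cell RNA sequencing (scRNA-seq). They were taken by symbol as glycolysis genes of proliferating cells. The rule used no measured value, but it was set with earlier results of these data known. Cells were taken as barcodes found in 1 library only, with at least 10000 unique molecular identifiers (UMIs, each a tag of 1 captured RNA molecule) and at most 20% of UMIs from mitochondrial genes. This left 1208 of 11411 WT barcodes, 2161 of 10706 LApc barcodes and 1931 of 12068 LApcL barcodes, or 5300 of 34185 in all. Every kept barcode was thinned at random to 10000 UMIs. It was then called cycling if it held 2 or more UMIs of Mki67 and Top2a, which are transcribed in dividing cells, and zero if it held none.

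There were 3 groups with 1 library each. All came from C57BL/6 mice that had received 2 doses of tamoxifen of 2 mg at 7 to 8 weeks of age, and all organoids were taken at passage 3 on day 6 of culture. WT mice, whose labels name no allele, were analysed 21 days after tamoxifen. LApc mice (Lgr5-CreERT2;Apc fl/fl, 29 days) lose Apc, a brake on Wnt signalling, in cells that express the stem cell gene Lgr5, and LApcL mice (the same alleles with Lef1 fl/fl, 21 days) are also meant to lose the Wnt transcription factor Lef1. Since the Cre acts only in Lgr5-expressing cells, a culture could hold cells that escaped deletion, and the share of cells with a deletion is not known here. With 1 library per group no test between groups was possible. The intervals given are exact 95% intervals for counting error only, and differences between mice or cultures cannot be told apart from differences between genotypes. The same holds for the time after tamoxifen, 29 days for LApc and 21 days for WT and LApcL.

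Glycolysis breaks glucose down to pyruvate in the cytosol. Dividing cells, tumour cells and cells short of oxygen are known to take up much glucose and to turn pyruvate into lactate, a use of the pathway supported by particular isoforms such as HK2, PKM and LDHA. Mature enterocytes, the absorptive cells of the villus, express another set of isoforms, among them liver-type pyruvate kinase and the transporters GLUT2 and GLUT5. The hypoxia-inducible factor HIF and the oncoprotein MYC bind DNA at ACGTG-type sequences and are known activators of many of the 10 genes.

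The promoters of 4 members, chosen by hand, are shown as examples that hold from 1 to 3 ACGTG motifs. Aldoa and Pkm also held ACGTG before a listed start and are not shown. Each sequence is the 250 bases upstream of a RefSeq transcription start on GRCm38.p6, 5′ to 3′ on the gene's strand, with ACGTG and its reverse complement CACGT in capitals. Ldha is chr7:46845554-46845803 (+), Pgk1 is chrX:106186850-106187099 (+), Slc2a1 is chr4:119108495-119108744 (+) and Hk2 is chr6:82774455-82774704 (-).
Ldha: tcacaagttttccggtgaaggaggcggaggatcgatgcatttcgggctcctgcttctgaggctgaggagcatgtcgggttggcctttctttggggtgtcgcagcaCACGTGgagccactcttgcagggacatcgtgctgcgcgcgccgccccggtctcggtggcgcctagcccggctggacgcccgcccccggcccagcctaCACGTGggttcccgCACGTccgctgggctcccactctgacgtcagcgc
Pgk1: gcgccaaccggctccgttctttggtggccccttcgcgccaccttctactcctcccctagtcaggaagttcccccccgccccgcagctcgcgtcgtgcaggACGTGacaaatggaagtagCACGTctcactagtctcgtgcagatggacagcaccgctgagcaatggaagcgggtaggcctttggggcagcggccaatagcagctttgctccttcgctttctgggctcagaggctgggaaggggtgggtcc
Slc2a1: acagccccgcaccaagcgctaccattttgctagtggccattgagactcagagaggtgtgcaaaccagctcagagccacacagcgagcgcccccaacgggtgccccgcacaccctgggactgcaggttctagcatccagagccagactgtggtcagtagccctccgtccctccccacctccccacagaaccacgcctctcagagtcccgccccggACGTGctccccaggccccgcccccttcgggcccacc
Hk2: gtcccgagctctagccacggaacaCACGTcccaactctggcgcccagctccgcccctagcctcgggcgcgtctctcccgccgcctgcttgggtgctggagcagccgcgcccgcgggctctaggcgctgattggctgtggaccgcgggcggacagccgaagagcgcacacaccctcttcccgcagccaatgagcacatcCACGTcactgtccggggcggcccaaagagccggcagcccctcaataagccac

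Ldha held 3 capitalised stretches, the farthest 145 bases and the nearest 34 bases before the start shown, and the 2 at 145 and 48 bases were full CACGTG palindromes, a motif that contains ACGTG on both strands. The window of the other of the 2 Ldha starts in the table (chr7:46846832-46847131) held none. Pgk1 held 2 stretches, at 150 and 131 bases, and Hk2 held 2, at 226 and 52 bases. Slc2a1 held 1, at 36 bases. Over the whole windows, which run from 250 bases before to 50 bases after each start, 7 of the 10 members had ACGTG on either strand at 1 or more of their listed starts, as did 21.8% of the 27025 genes in the RefSeq table and 19.6% of its 32851 promoters. The related motif GCGTG was present in 6 of 10 members and in 35.2% of genes (32.4% of promoters), and CACGTG in 1 of 10 members and in 8.09% of genes (7.15% of promoters). These matches describe letters in a window and do not show binding.

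The kept barcodes held 48895147, 90864428 and 80504226 UMIs in WT, LApc and LApcL, with medians of 38074, 34377 and 32584 UMIs per barcode before thinning. Median mitochondrial shares were 10.5%, 5.64% and 6.39%. The libraries differed in the cells they held. The 10 enterocyte markers, Fabp1 and Apoa1 among them, summed to 13138 CPM (UMIs per 1000000 UMIs) in WT and to only 13.0 and 11.3 CPM in LApc and LApcL, where each marker was under 10 CPM. Stem cell markers summed to 183, 775 and 959 CPM, although Olfm4 was at 75.7, 0.879 and 0.155 CPM and Axin2 at 18.5, 420 and 329. Paneth markers summed to 289, 1864 and 4961, and goblet markers to 1835, 456 and 989. From LApc to LApcL the Paneth sum went up mainly through Defa24 (461 and 2864 CPM), while Lyz1 (473 and 347), Itln1 (207 and 136) and the goblet gene Fcgbp (48.1 and 22.6) went the other way. A further 3195 barcodes occurred in all 3 libraries and were left out. Of these, 3145 WT, 3151 LApc and 3149 LApcL barcodes had at most 20% mitochondrial UMIs. Among them the CPM of a member differed between the libraries by at most 1.12-fold, the value for Eno1. They held the endothelial marker Pecam1 at 1078, 1062 and 1052 CPM and the epithelial marker Epcam at only 2.22, 9.24 and 12.4 CPM. Their median depths were 2200, 1498 and 1622 UMIs. The same barcodes recur in each library, so this closeness says nothing about the organoid cells.

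Cycling barcodes made up 18.1% of WT (219 barcodes, 95% exact binomial interval 16.0 to 20.4%), 23.1% of LApc (500, 21.4 to 25.0%) and 38.5% of LApcL (744, 36.4 to 40.7%). The remaining barcodes were zero, at 855, 1400 and 882, or held 1 UMI of Mki67 and Top2a.

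The name of the gene set was checked first, by asking whether the 10 genes were higher in cycling than in zero barcodes of the same library. Most were not. The median log2 ratio of cycling against zero over the 10 genes was -0.38 in WT, -0.31 in LApc and -0.22 in LApcL, and over all genes of at least 10 CPM in either state it was 0.14, -0.05 and -0.07. The ratio was below 0 for 8 of 10 genes in WT, 9 of 10 in LApc and 10 of 10 in LApcL. In LApcL the highest ratio, that of Ldha, was -0.01, and it turned to 0.00 with median-of-ratios scaling, leaving 9 of 10 below 0. The differences were small. At least 1.5-fold lower were 2 genes in WT, where 13.7% of all genes passed that limit, 1 gene in LApc (15.1% of all genes) and no gene in LApcL (7.87%). No member was at least 1.5-fold higher in any library, against 24.7%, 11.6% and 7.76% of all genes. A barcode without these UMIs may still come from a dividing population, so the split does not separate dividing from resting cells. Since most members were not higher at this split, the set is called the 10 glycolysis genes here.

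**Figure D1:**
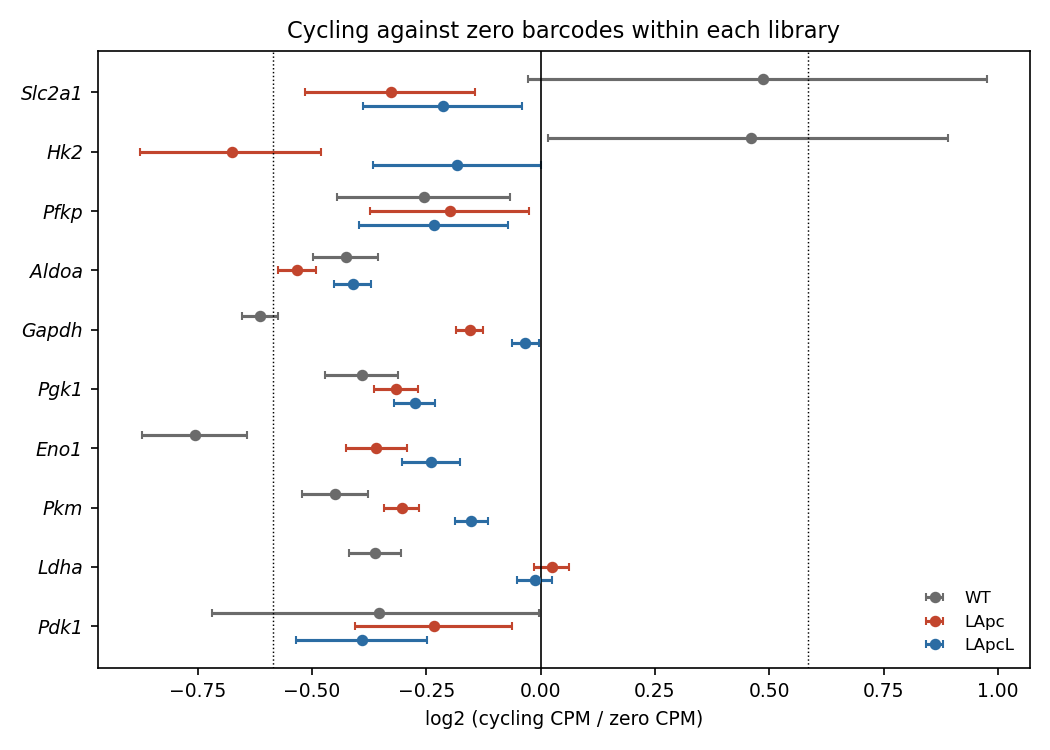
Log2 ratio of CPM in cycling against zero barcodes for each of the 10 genes (rows) in WT, LApc and LApcL (colours), with exact 95% conditional binomial intervals for counting error as bars; dotted lines mark 1.5-fold. Most points lie left of 0 in all 3 libraries, Ldha lies at 0 in LApc and LApcL, and Slc2a1 and Hk2 lie right of 0 in WT only.

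Counted per barcode, the 10 genes together gave a median of 97 UMIs per 10000 in zero and 66 in cycling barcodes of WT. The medians were 94 and 75 in LApc, and 87 and 73 in LApcL. The range from the 10th to the 90th percentile was wide, 45 to 161 UMIs in zero and 37 to 113 in cycling barcodes of WT, so the states overlapped over most of their range in every library. In LApc it was 30 to 161 and 31 to 137, and in LApcL 34 to 142 and 34.3 to 131. Medians were also lower at the highest Mki67 and Top2a counts. In barcodes with 10 or more UMIs of the pair they were 63 in WT (48 barcodes), 72.5 in LApc (146) and 68 in LApcL (223).

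In WT the sum followed enterocyte content. Barcodes with under 10 enterocyte marker UMIs per 10000 had a median of 50 member UMIs (181 barcodes), those with 10 to under 100 had 76 (596) and those with 100 or more had 120 (431). Zero barcodes of WT held a mean of 161 enterocyte marker UMIs and cycling ones 39.2. Among WT barcodes with under 10 enterocyte marker UMIs the order of the states turned, with medians of 50 in 94 zero and 53 in 55 cycling barcodes, and the members' median log2 ratio was 0.17. The goblet and enteroendocrine marker lists summed to 7310 and 5050 CPM in these 181 barcodes. In LApc and LApcL enterocyte markers were near 0 in both states.

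**Figure D2:**
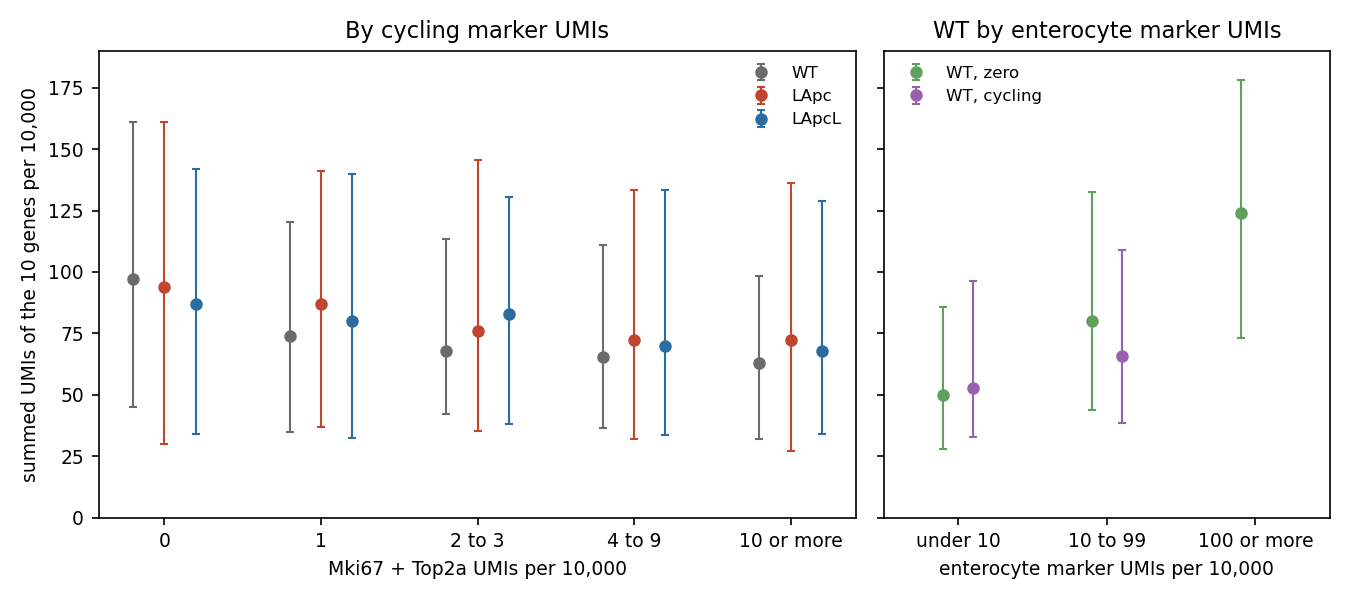
Summed UMIs of the 10 genes per 10000 (vertical axis; point, median; bar, 10th to 90th percentile of barcodes), by Mki67 and Top2a UMIs in the 3 libraries (left) and by enterocyte marker UMIs in zero and cycling WT barcodes (right; the highest group had under 20 cycling barcodes, which are not drawn). The left medians go from 97, 94 and 87 at 0 UMIs to 63, 72.5 and 68 at 10 or more, while the right medians climb from 50 to 124 in zero barcodes.

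Depth and other cell types moved with the cycling state too, and in part the mitochondrial share. Cycling barcodes were deeper than zero ones before thinning, with medians of 46986 against 37411 UMIs for WT, 49655 against 31117 for LApc and 43034 against 28201 for LApcL. Over all barcodes the median mitochondrial shares of cycling and zero barcodes were 9.85% and 10.6% for WT, 6.33% and 5.42% for LApc, and 6.39% and 6.28% for LApcL. In the lowest of 3 equal groups by UMIs the median mitochondrial share was 11.2% in cycling and 5.64% in zero barcodes of LApc, and 12.4% and 7.06% in those of LApcL, while both were 10.3% in WT. In the highest group of LApcL cycling barcodes had the lower share, 5.24% against 6.15%. The median member sums in the lowest group were 52 and 89 UMIs for LApc, and 55 and 77 for LApcL. The part of the mitochondrial share in these sums was not tested. Within the middle group the members' median ratio was -0.36 in WT, -0.15 in LApc and -0.16 in LApcL. Past 1.5-fold in WT were 2 members on the low side and 1 on the high side, but the share of all genes was not taken there. In WT the goblet markers summed to 540 CPM in cycling and 1812 in zero barcodes, and the enteroendocrine markers to 6.39 and 1941. Goblet markers summed to 135 CPM in cycling and 547 in zero barcodes of LApc, and to 177 and 1567 in LApcL. Paneth markers summed to 550 and 2329 CPM in LApc, and to 1557 and 7589 in LApcL. All 6 Paneth markers were at least 1.5-fold lower in cycling barcodes of both libraries. With only barcodes under 20 UMIs of the Paneth and goblet markers, the members' median was -0.33 in LApc and -0.25 in LApcL.

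Taken by role, the genes differed in how far they lay below 0. Aldoa, the aldolase that splits fructose bisphosphate, stood at 1190 CPM in zero and 885 in cycling barcodes of WT, at 1631 and 1127 in LApc, and at 1414 and 1063 in LApcL. Its log2 ratios were -0.43 (-0.50 to -0.36), -0.53 (-0.58 to -0.49) and -0.41 (-0.45 to -0.37), so it was lower in cycling barcodes of each library. Pgk1, the first enzyme of the pathway to make ATP, had ratios of -0.39, -0.32 and -0.28. Ldha, which turns pyruvate into lactate, differed between the libraries in this respect. It stood at 1708 CPM in zero and 1329 in cycling WT barcodes, a ratio of -0.36 (-0.42 to -0.30), but at 1414 and 1437 CPM in LApc (0.02, -0.02 to 0.06) and at 1421 and 1408 in LApcL (-0.01, -0.05 to 0.02).

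Eno1 and Gapdh were the 2 members at least 1.5-fold lower in cycling WT barcodes. Eno1, the enolase, stood at 541 CPM in zero and 321 in cycling barcodes (-0.76, -0.87 to -0.64), and Gapdh, the dehydrogenase often used as a reference gene, at 4236 and 2768 CPM (-0.61, -0.65 to -0.57). With a second random thinning the values were -0.60 for Eno1 and -0.55 for Gapdh, so that only Eno1 passed 1.5-fold. In LApc and LApcL the Gapdh ratios were -0.15 and -0.03. Among WT barcodes with under 10 enterocyte marker UMIs both genes turned, with Eno1 at 216 CPM in zero and 267 in cycling barcodes and Gapdh at 1845 and 2196.

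Hk2, the hexokinase that traps glucose in the cell, stood at 82.4 CPM in zero and 51.6 in cycling barcodes of LApc. This was the lowest ratio of that library, -0.68 (-0.88 to -0.48). In LApcL it stood at 65.4 and 57.7 CPM (-0.18, -0.37 to 0.00). In WT it was higher in cycling barcodes, at 27.9 against 20.2 CPM (0.46, 0.02 to 0.89), but this rested on 61 and 173 UMIs. Within WT barcodes with 10 to under 100 enterocyte marker UMIs Hk2 was at 21.4 CPM in cycling and 26.8 in zero barcodes, and within those under 10 at 40.0 and 52.1, so the WT direction did not hold within these strata. It was also 0.25 with a second random thinning and -0.24 at a mitochondrial limit of 10%. Slc2a1, the glucose transporter GLUT1, had a WT ratio of 0.49 (-0.03 to 0.98) from 47 and 131 UMIs, which was 0.04 with the second thinning, and ratios of -0.33 in LApc and -0.21 in LApcL.

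The remaining members lay between. Pkm, which makes pyruvate, had ratios of -0.45, -0.30 and -0.15 in WT, LApc and LApcL. Pfkp, a phosphofructokinase at the committed step, had -0.25, -0.20 and -0.23. Pdk1, a kinase that holds pyruvate back from the citrate cycle, had -0.35, -0.23 and -0.39.

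The effect of the Apc genotype was approached by comparing LApc with WT. Slc2a1, Hk2, Pdk1 and Pkm were at least 1.5-fold higher in LApc and Gapdh and Pfkp were at least 1.5-fold lower. These are 4 and 2 of 10 genes, beside 45.4% and 15.4% of all genes tested, so the members were called higher about as often as other genes. The members' median log2 ratio was 0.37 and that of all genes was 0.50. Scaling by the median of ratios lowers every ratio by 0.26, which leaves Slc2a1, Hk2 and Pdk1 at least 1.5-fold higher and turns Eno1 from 0.19 to -0.07. In bulk sums of this kind, fewer cells of a type and less RNA per cell cannot be told apart.

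**Figure D3:**
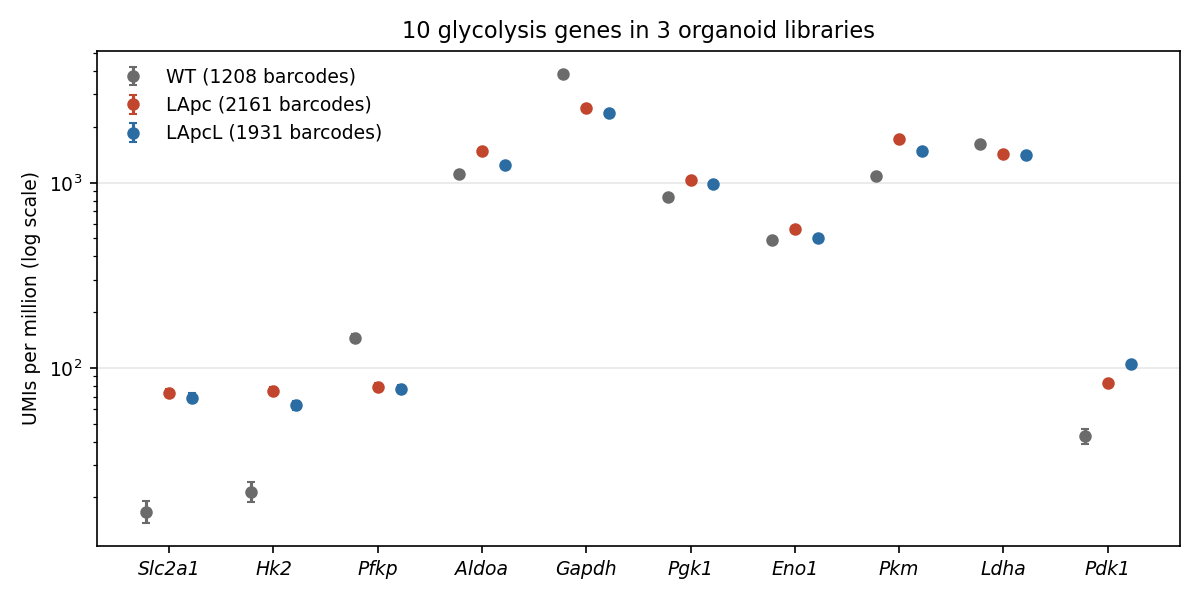
CPM of the 10 genes (log axis) over all kept barcodes of WT, LApc and LApcL, with exact 95% Poisson intervals, most of them smaller than the points. Slc2a1, Hk2 and Pdk1 stand farthest below the other libraries in WT, Gapdh and Pfkp stand above them in WT, and the LApc and LApcL points lie close together for all 10 genes.

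Coordinates are of GRCm38 with the GENCODE vM21 annotation. Slc2a1 (chr4:119108711-119137983, + strand) stood at 16.7 CPM (14.5 to 19.2) in WT, 73.6 (70.0 to 77.3) in LApc and 69.0 (65.3 to 72.8) in LApcL. WT was the low library, by a log2 ratio of 2.14 (1.93 to 2.36) for LApc against WT. Hk2 (chr6:82725025-82774454, - strand) followed the same order, with 21.4 CPM (18.8 to 24.1) in WT, 74.9 (71.3 to 78.7) in LApc and 63.0 (59.5 to 66.6) in LApcL, and its ratio was 1.81 (1.62 to 2.01). In a single barcode both genes were sparse. Their median was 0 UMIs per 10000 in every library and the 90th percentile was 1 UMI in WT and 2 UMIs in LApc and LApcL.

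Pfkp (chr13:6579768-6648777, - strand) had the opposite order, with WT at 145 CPM, LApc at 78.9 and LApcL at 76.7, a ratio of -0.88 (-0.98 to -0.78). Gapdh (chr6:125161715-125166467, - strand) was likewise highest in WT, at 3869 CPM against 2527 and 2388, a ratio of -0.61 (-0.63 to -0.60). Its median was 36 UMIs per 10000 in WT barcodes, 23 in LApc and 22 in LApcL, with 90th percentiles of 67, 44 and 42. Aldoa (chr7:126795234-126800751, - strand) stood at 1110, 1491 and 1252 CPM, with a ratio of 0.43. A second gene ID with the symbol Aldoa, which lies upstream at chr7:126800790-126809108, had 0, 1 and 4 UMIs and was not added.

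Pgk1 (chrX:106187100-106203699, + strand) stood at 833, 1040 and 984 CPM, a ratio of 0.32 (0.29 to 0.35). It is X-linked, and Xist, the RNA of the inactive X chromosome, was at 1391 CPM in LApc and at 0.993 and 0.363 in WT and LApcL. Sex was read from Xist alone, by which the LApc library differed from both libraries it was compared with. In all ratios of LApc with WT or LApcL, not only that of Pgk1, sex and genotype cannot be told apart. Eno1 (chr4:150236721-150248879, + strand) stood at 490, 559 and 503 CPM. Its near-copy Eno1b had 112, 236 and 173 UMIs in the 3 libraries, so some reads may be assigned to the wrong copy. Pkm (chr9:59656368-59679375, + strand) stood at 1091, 1725 and 1482 CPM, a ratio of 0.66 (0.63 to 0.69), and Ldha (chr7:46841475-46855627, + strand) at 1611, 1423 and 1415 CPM, a ratio of -0.18 (-0.21 to -0.15). For Ldha the medians of 14, 13 and 14 UMIs per barcode hardly differed. Pdk1 (chr2:71873224-71903858, + strand) stood at 42.6, 82.4 and 105 CPM, a ratio of 0.95 (0.81 to 1.10), and was the only member whose levels stepped up from WT to LApc to LApcL with intervals that did not overlap.

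The comparison with WT depended on which WT barcodes were used. Against the 181 WT barcodes with under 10 enterocyte marker UMIs, 7 of 10 members were at least 1.5-fold higher in LApc (30.9% of all genes) and none was lower (14.0%), and the median ratio was 0.94, with 0.24 for all genes. These WT barcodes held 7310 CPM of goblet and 5050 CPM of enteroendocrine markers, against 456 and 16.1 CPM in LApc, and the part of these cell types in the ratios was not tested. Eno1 then had a ratio of 1.22, Pkm 1.16, Pdk1 1.07, Pgk1 1.06, Aldoa 0.82 and Hk2 0.71. Slc2a1, at 1.41, remained the highest. Gapdh turned from -0.61 to 0.37, and Pfkp was at -0.19 (-0.42 to 0.05). Within cycling barcodes alone 4 members were higher (32.7% of all genes) and 1 was lower (14.1%), with a median of 0.46. At a mitochondrial limit of 10% the median was 0.48, with 4 higher and 1 lower, but the share of all genes was not taken at that limit.

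The isoforms counted for most steps differed between WT and the other libraries. UMIs of 3′ libraries tag 1 end of each molecule, so shares within a family were taken without dividing by length. Slc2a1 made up 8.42% of the UMIs of Slc2a1, Slc2a2, Slc2a3 and Slc2a5 in WT, 99.3% in LApc and 98.4% in LApcL. In WT the fructose transporter Slc2a5 held 62.2% and Slc2a2 held 28.9%.

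Hk2 made up 24.0% of hexokinase UMIs in WT, where Hkdc1 held 68.7%, and 75.3% in LApc and 73.6% in LApcL, where Hk1 came next with 21.6% and 22.9%. Pkm held 80.8% against Pklr in WT and 98.9% and 98.6% in LApc and LApcL. Pfkp went the other way, from 56.8% in WT to 29.1% and 25.1%, as Pfkl went from 40.2% to 69.5% and 72.5%. Eno1 and Ldha held over 94% of their families in each library, with Eno1 at 95.6%, 94.3% and 97.9% and Ldha at 99.9%, 98.3% and 99.6%.

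WT barcodes with few enterocyte markers lay between these patterns. Among the 181 with under 10 marker UMIs, Slc2a1 held 73.5% (61.4 to 83.5%) of its family and Hk2 55.3% (47.0 to 63.4%), against 3.43% and 6.76% in the 431 barcodes with 100 or more. Pkm held 91.6% and 75.7%.

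**Figure D4:**
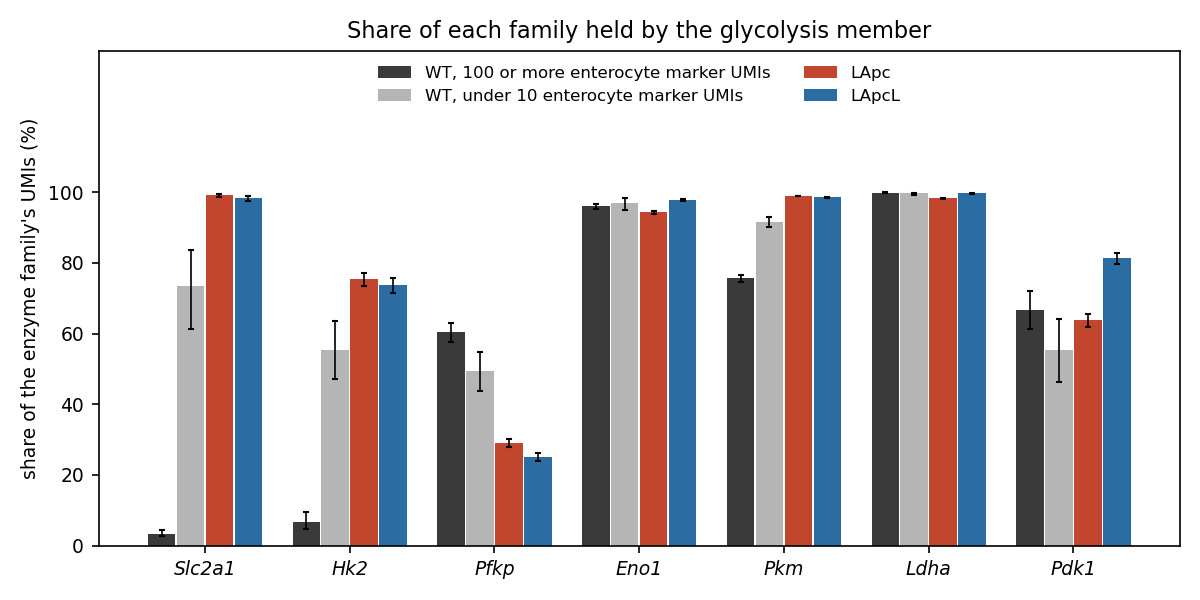
Share (%) of an enzyme family's UMIs held by the named member, in WT barcodes with 100 or more and with under 10 enterocyte marker UMIs per 10000, in LApc and in LApcL (bars, with exact 95% binomial intervals). Slc2a1, Hk2 and Pkm hold the larger share in LApc and LApcL, Pfkp the smaller, and Eno1 and Ldha hold most of their family in every group.

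The makeup of the Pdk1 family differed most between LApc and LApcL. Pdk1 held 61.1%, 63.7% and 81.4% of the pyruvate dehydrogenase kinase UMIs in WT, LApc and LApcL, while Pdk4 held 6.88%, 15.0% and 0.0402%, the last from 1 UMI.

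The Lef1 genotype was asked about by comparing LApcL with LApc. The 10 genes differed little. Their log2 ratios ran from -0.25 to 0.35 with a median of -0.09, against 0.04 for all genes, and none was 1.5-fold higher (7.49% of all genes) or 1.5-fold lower (7.65%). Pdk1, at 0.35 (0.26 to 0.44), was the only one of the 10 above 0. Aldoa (-0.25, -0.28 to -0.23), Hk2 (-0.25, -0.36 to -0.14) and Pkm (-0.22, -0.24 to -0.20) were the lowest, and Ldha was at -0.01 (-0.03 to 0.02). These intervals hold counting error alone. A difference of this size between cultures, or from the time after tamoxifen, cannot be told apart from one between genotypes.

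LApcL held more cycling barcodes than LApc, so the comparison was repeated within each state. In zero barcodes the members' median was -0.09, with none higher (9.19% of all genes) or lower (8.90%). In cycling barcodes it was -0.01, again with none higher (4.51%) or lower (3.73%). Aldoa was at -0.21 in zero and -0.08 in cycling barcodes, Pkm at -0.23 and -0.08, and Hk2 at -0.33 (-0.48 to -0.19) and 0.16 (-0.07 to 0.39). Pdk1 stayed above 0 in both, at 0.44 (0.32 to 0.56) and 0.28 (0.09 to 0.47).

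**Figure D5:**
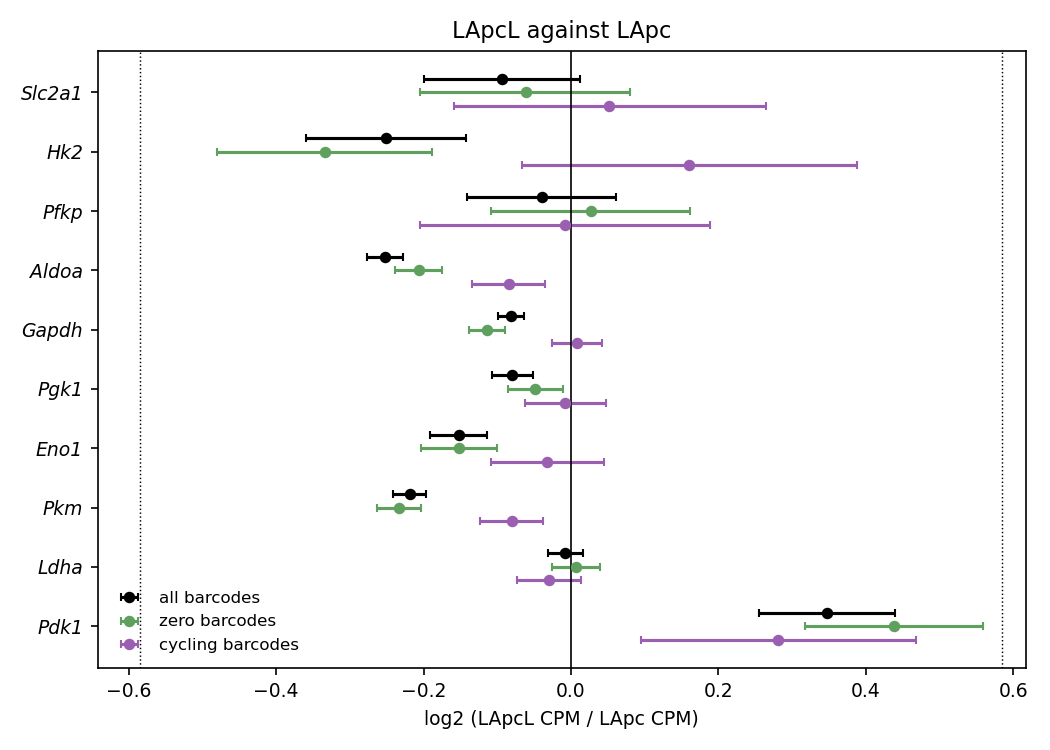
Log2 ratio of CPM in LApcL against LApc for the 10 genes (rows), over all barcodes, zero barcodes and cycling barcodes (colours), with exact 95% conditional binomial intervals for counting error; dotted lines mark 1.5-fold. All points lie inside the dotted lines, Pdk1 lies right of 0 in each set, and the cycling points lie nearer to 0 than the zero points for Aldoa, Gapdh and Pkm.

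Npy, a gene counted almost only in LApc, marked 299 LApc barcodes (13.8%). Their median sum of member UMIs was 88, against 89 in the other 1862, and the members' LApcL to LApc median was -0.08 without them. Cycling barcodes made up 13.7% of the Npy barcodes and 24.7% of the others. Among zero barcodes alone the median sums were 85.5 with Npy (232 barcodes) and 96 without (1168).

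Within a library, the abundant members went up and down together from barcode to barcode. Spearman's rho of each member with the sum of the other 9 was 0.83 for Pgk1, 0.84 for Gapdh, 0.79 for Aldoa and Pkm, 0.77 for Ldha and 0.69 for Eno1 across the 1400 zero barcodes of LApc. The same 6 genes had values from 0.61 (Eno1) to 0.83 (Pgk1) across 882 zero barcodes of LApcL and from 0.64 (Aldoa) to 0.73 (Eno1) across 855 of WT. The sparse members were looser. Pfkp had 0.46, 0.41 and 0.35 in LApc, LApcL and WT, Slc2a1 0.32, 0.27 and 0.03, Pdk1 0.30, 0.30 and 0.13, and Hk2 0.27, 0.23 and -0.16. Low counts alone bring rho down, and barcodes of 1 library share its culture and preparation, so these values are descriptions.

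The genes whose counts were most like the summed members were looked for among all others of at least 50 CPM. Across zero barcodes of LApc (3085 genes) they were Mif (0.79), Pgam1 (0.76), Tpi1 (0.71), Fam162a (0.70), Gpi1 (0.67), Bnip3 (0.60), Slc16a3 (0.60), Bsg (0.57), Lgals3 (0.51) and Ass1 (0.51). Across those of LApcL (3126 genes) they were Mif (0.77), Fam162a (0.75), Tpi1 (0.74), Bsg (0.73), Pgam1 (0.71), Lgals3 (0.61), Higd1a (0.60), Egln3 (0.59), Gpi1 (0.59) and Slc16a3 (0.57). The lists share 8 genes. In WT, by the same measure, the highest value was that of Gpi1 (0.80) and the enterocyte gene Apoa4 had 0.68, and the summed members had a rho of 0.65 with enterocyte marker UMIs there.

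Related pathways were given by lists. Beside each count, the share of all genes past 1.5-fold given above is the background. Of the 21 other glycolysis genes, 18 reached 10 CPM in LApc or WT, of which 7 were at least 1.5-fold higher and 6 lower in LApc, with a median ratio of 0.15. Against the WT barcodes with under 10 enterocyte marker UMIs 16 passed, of which 10 were higher and 4 lower, with a median of 1.01. Those on the low side included Hkdc1 (-6.37), Pklr (-3.75) and Pfkfb4 (-2.63), a regulator of phosphofructokinase, followed by Gpi1 (-1.13) and Pfkfb2 (-1.09). Ldhb (3.33), Aldoc (2.23), Hk1 (1.98) and the lactate exporter Slc16a3 (1.90) were higher. Of 7 genes of gluconeogenesis and fructose use, 5 passed and all 5 were lower in LApc. G6pc had 0 UMIs in LApc and 816 in WT, which with a floor of 3 UMIs makes it at least 487-fold lower. Fbp1 had a ratio of -8.80, Slc2a5 -8.06 and Khk -6.66, and Slc2a2 had 1 UMI in LApc and 694 in WT.

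The 12 citrate cycle genes had a median of -0.68 in LApc against WT, with none higher and 8 lower, among them Mdh2 (-1.40) and Ogdh (-1.08). Against the WT barcodes with few enterocyte markers the median was -0.15, with 1 higher and 4 lower, and within cycling barcodes -0.44, with 1 higher and 3 lower. Between cycling and zero barcodes their median was 0.23 in LApc, 0.10 in LApcL and -0.07 in WT, with 1 gene lower in WT and none past 1.5-fold in the other libraries. Of 11 pyruvate dehydrogenase genes, kinases and pyruvate carriers, 10 passed in LApc against WT, of which 2 were higher and 4 lower. Pdk4 was at 2.01, Pdhb at -1.06 and the pyruvate carrier Mpc2 at -1.02. The 7 pentose phosphate genes held 1 higher, G6pdx (1.09), and 1 lower, with a median of -0.15.

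Of 14 hypoxia targets outside glycolysis, 8 were at least 1.5-fold higher and 1 lower in LApc than in WT, with a median of 1.02. Ankrd37 (1.87), Bnip3 (1.85), Bnip3l (1.40), P4ha1 (1.28), P4ha2 (1.28), Mxi1 (1.15) and Egln1 (1.05), which include mitophagy receptors and prolyl hydroxylases, were higher and Ndrg1 (-1.15) was lower. Between cycling and zero barcodes none was 1.5-fold higher in any library, and 5 were lower in LApc, 2 in LApcL and 4 in WT, with medians of -0.43, -0.45 and -0.19. Hif1a itself stood at 51.6 CPM in LApc and 210 in WT, a ratio of -2.03. Of the 10 regulators, 8 passed, with 2 higher and 3 lower. Beside Hif1a, the carbohydrate sensor Mlxipl (-4.62) and Txnip (-2.18) were lower, and Trp53 (1.81) was higher.

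Between LApcL and LApc the largest differences in these lists were on the low side. Pdk4 had 1 UMI in LApcL and 419 in LApc, Ldhb had a ratio of -2.17, Eno3 of -1.62 and Pfkfb3, which makes an activator of phosphofructokinase, of -1.18. Egln3, a prolyl hydroxylase, was higher in LApcL, at 143 CPM against 71.4, with a log2 interval of 0.91 to 1.09. Of 14 other glycolysis genes that passed, 4 were lower and none higher (median -0.15), of 14 hypoxia targets 1 was higher and 1 lower (median -0.10), and no citrate cycle or pentose phosphate gene passed 1.5-fold. In cycling against zero barcodes the lists held few genes past 2-fold in LApc and LApcL. These were Aldoc (-1.10 in LApc, -1.20 in LApcL), Pfkfb3 (-1.10) and Pdk4 (-2.69) in LApc. In WT they included G6pc (-3.34), Fbp1 (-3.15), Slc2a5 (-2.77), Khk (-1.40), Hkdc1 (-1.32) and Ndrg1 (-1.13), all lower in cycling barcodes, where enterocyte markers were lower too.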

How the data were processed

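Organoid cells of 3 genotypes were profiled with 1 10x 3′ library each. The authors deposited 1 filtered matrix of raw UMI counts per library, aligned to mm10. The file header names Cell Ranger 6.0.1 and the submitters' processing notes name 2.1.1. The kit is given as v2 or v3, without saying which library used which. From the deposited counts, barcodes found in more than 1 library, under 10000 UMIs or over 20% mitochondrial UMIs were left out, and each remaining barcode was thinned to 10000 UMIs with a fixed seed. Thinned UMIs were summed per library and state and given as CPM (UMIs per 1000000 UMIs), with exact Poisson intervals. Ratios have conditional binomial and shares Clopper-Pearson 95% intervals, all for counting error only. Genes of at least 10 CPM in either group were compared and called at 1.5-fold. For the ratios, a count under 3 UMIs over the group was set to a floor of 3. With 1 library per group there was no test.

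The genes named are the 10 members, genes of the 7 pathway lists with at least 10 CPM in a group and a log2 ratio of at least 1 in size, and the 10 genes with the highest Spearman's rho with the summed members. The exceptions, chosen after their values were seen, are marker genes, Npy, Xist and isoforms given as shares. 1 gene that the rule also names is not reported here, though list counts include it. The members and lists were chosen with earlier results of these data known. Doublets were kept, since Scrublet by its own limit marked 9, 3 and 7 barcodes of WT, LApc and LApcL, and an alternative left out the highest-scoring 9.13%, 8.56% and 9.65%. Other alternatives changed thinning, depth, mitochondrial limit, scaling, pseudocount, CPM minimum, enterocyte content, cycling call and Npy. Alternatives restricted by depth or by Paneth and goblet markers, and the one without Npy barcodes for cycling in LApc, were chosen after seeing the data. Simulated data for LApc against WT had 7321 genes, of which 200 were changed, and the intervals held the true ratio for 95.4% of genes. The counts were drawn from a Poisson model, which the intervals assume. This checks the computation only and not the spread between cells or cultures. Python 3.11.15, numpy 2.4.6, scipy 1.17.1, pandas 2.3.3, scanpy 1.11.5 and matplotlib 3.10.9 were used.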

Additional observations from a re-analysis of the deposited data

Results flagged for a closer look

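Hk2 had log2 ratios of cycling against zero barcodes of opposite sign, 0.46 in WT and -0.68 in LApc, each with a counting interval that left out 0. The difference between the libraries was not tested, since each is a single library. The WT value rested on 61 and 173 UMIs, was 0.25 with a second random thinning and fell below 0 among barcodes with under 10 enterocyte marker UMIs (-0.38) and at a mitochondrial limit of 10% (-0.24), while the LApc value ran from -0.89 to -0.35 over its alternatives.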

How the results depend on the processing

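Each library is 1 culture, so no setting measures the spread between animals, and in WT the low members rest on few UMIs (202 for Slc2a1 and 258 for Hk2). No paired analysis was possible because each group had 1 library. Over 13 alternatives for each comparison (14 for cycling against zero in LApc), the members' median log2 ratio ran from 0.11 to 0.94 for LApc against WT, from -0.12 to -0.01 for LApcL against LApc, and for cycling against zero from -0.48 to 0.17 in WT, from -0.37 to -0.15 in LApc and from -0.38 to -0.15 in LApcL. Of the single genes' values, 80 of 130, 100 of 130, 97 of 130, 108 of 140 and 104 of 130 stayed within their counting intervals, and 3 turned sign after a call. These were, with under 10 enterocyte marker UMIs only, Gapdh in LApc against WT (0.37) and Gapdh (0.25) and Eno1 (0.31) in cycling against zero WT barcodes.

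For LApc against WT the median was 0.48 at a mitochondrial limit of 10%, 0.94 with under 10 enterocyte marker UMIs, 0.11 with median-of-ratios scaling and 0.46 in cycling barcodes. There was 1 member 1.5-fold lower at the limit of 10%, at 5000 UMIs and in cycling barcodes, and with few enterocyte markers 7 were higher and 0 lower. For LApcL against LApc the median was -0.05 without thinning and -0.01 in cycling barcodes. For cycling against zero in WT the median was -0.31 at the limit of 10% and 0.17 with few enterocyte markers. There 1 member was higher without thinning, without the highest Scrublet scores, with few enterocyte markers, at 4 or more cycling UMIs, by S phase genes and at middle depth. There was 1 lower without thinning and with the second seed, 0 at the limit of 10% and with few enterocyte markers, and 3 at 5000 UMIs, with a median of -0.48. In LApc 2 were lower at 4 or more cycling UMIs, and at middle depth the median was -0.15 with 0 lower. In LApcL the S phase genes gave a median of -0.38 with 2 lower. A share of all genes was given above for LApc against WT in cycling barcodes and with few enterocyte markers. For the other counts of this paragraph it was not taken, so they cannot be set against other genes. The cause of these shifts was not tested.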

Other observations

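The summed members were lower in barcodes of higher mitochondrial share in LApc and LApcL. Spearman's rho was -0.24 over 2161 LApc and -0.17 over 1931 LApcL barcodes, and -0.37 and -0.27 over their 500 and 744 cycling barcodes, against 0.08 over 1208 WT barcodes. Both measures are shares of the same 10000 or more UMIs of a barcode, so these values are descriptions.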
